A study of Homo sapiens with 4 samples.

Results

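The ATF4 integrated stress response genes are 37 genes chosen by name: eIF2α with 2 of its kinases and a phosphatase subunit, ATF4 and other stress transcription factors, and genes that ATF4 or CHOP are known to activate. All 37 were found by symbol among the 57768 genes of the series, and 36 of them averaged an FPKM of 1 or more across the 4 libraries. FPKM is the number of sequenced fragments scaled to transcript length and to library size, so it is a level per length. The genes were proposed with these values known, both between genotypes and between libraries of 1 genotype. Their differences are therefore given as a description, and no p-value of a single member is given. Where the fit across all genes is counted over the members, the share of all genes stands beside the count and nothing is read from it.

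RNA-seq had been performed on cells that the labels call HepG2, a human liver cancer line, grown in serum-containing medium. There were 2 WT libraries and 2 C/EBPβ enh-/- libraries, the latter from cells in which CRISPR/Cas9 had removed both alleles of an enhancer of C/EBPβ, and the question was how the RNA profile differed without that enhancer. No stress treatment is named for either genotype. The labels do not say whether the libraries of a genotype came from separate cultures or clones, and their extraction text describes isolation of chromatin with an antibody before it names an RNA-seq library.

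In the integrated stress response, kinases such as PERK and GCN2 phosphorylate eIF2α when unfolded protein accumulates in the endoplasmic reticulum or when amino acids are scarce. Most translation then slows, while the mRNA of ATF4 is translated more. ATF4 is a bZIP transcription factor that pairs with C/EBP family proteins and binds C/EBP-ATF response elements, through which it activates genes for amino acid synthesis, amino acid uptake, tRNA charging and, with CHOP, the decision between recovery and cell death. C/EBPβ and C/EBPγ are among its partners. In liver, the pathway is known for its response to amino acid shortage and for the hormone FGF21.

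The response element was searched in promoter sequences from RefSeq (GRCh37), each 250 bases before to 50 bases after a gene's start. Promoters were found for 31 of the 37 genes. The letters TGATGNAA, on either strand, occurred in 6 of these 31 promoters (19.4%; ASNS, ATF3, CHAC1, FGF21, SLC3A2 and SLC7A1) and in 3.67% of all 27305 promoters. For 4 of these genes, 30 bases are given on the gene's strand, 5′ to 3′, with the element in capitals. These 4 held the whole element within the 250 bases before the start, and their expression played no part in the choice. In CHAC1 and FGF21 the element reads on the opposite strand.
ASNS: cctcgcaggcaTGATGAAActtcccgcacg
ATF3: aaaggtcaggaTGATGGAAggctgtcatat
CHAC1: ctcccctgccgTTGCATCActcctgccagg
FGF21: aaacaccaggaTTGCATCAgggaggaggag
The ASNS window lies at chr7:97501770-97501799 on the minus strand, with the element at −68 to −61 from the RefSeq start, and it overlaps an annotated untranslated exon of ASNS in GENCODE 44. The ATF3 window, chr1:212738547-212738576 on the plus strand, overlaps no annotated gene, and its element lies at −191 to −184. The CHAC1 window, chr15:41245449-41245478 on the plus strand, has the element at −209 to −202 and overlaps an untranslated exon of another CHAC1 transcript. The FGF21 window, chr19:49258716-49258745 on the plus strand, overlaps no annotated gene, with the element at −54 to −47. Within the 250 bases before the start alone, 4 of 31 promoters (12.9%) held the element, against 3.19% of all promoters. The letters TTGCNNAA, part of a C/EBP site, occurred in 5 of the 31 (16.1%) and in 10.6% of all promoters, and the AP-1 letters TGANTCA in 4 (12.9%) and in 7.76%. These letters overlap in part with the response element, and a match is a description of the sequence only.

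CEBPB, the gene of the deleted enhancer, was checked first. WT libraries 1 and 2 had an FPKM of 30.6 and 19.2, and C/EBPβ enh-/- libraries 1 and 2 had 12.4 and 11.8. The direction matched the label, with a log2 difference of −0.94 (standard error 0.27) that did not pass the threshold of 0.05 (limma with Benjamini-Hochberg adjustment, adjusted p = 0.125). The difference was −0.62 without WT library 1 and −1.27 without WT library 2. The labelled cell line was checked against 20 hepatocyte and HepG2 markers, and all 20 had an FPKM below 1 in every library, with ALB between 0 and 0.0553 and AFP between 0 and 0.0605. The summed FPKM of these markers was between 0.646 and 1.13. The liver markers of HepG2 were therefore absent from these libraries, and the cells are called by their genotype only. The sum over 6 epithelial genes was 1280 and 1230 in WT cells and 333 and 458 in C/EBPβ enh-/- cells, nearly all of it from KRT8, KRT18 and KRT7, with EPCAM and CDH1 near 0. Summed over 8 mesenchymal genes it was 286, 358, 248 and 211 in the same order, mainly from VIM, and of 4 blood markers only CD68 exceeded 1. The keratin sums moved with genotype, and their part in any difference between genotypes was not tested. In bulk libraries, fewer cells of a type and less RNA per cell cannot be told apart.

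For 28 of the 36 stress genes (77.8%) the 2 WT libraries differed by more than the genotype means did, against 40.8% of all genes. A gap between single libraries varies more than a difference of means, so the count is read only beside that share. The widest gaps on the log2(FPKM + 1) scale were those of PCK2 between the WT libraries (2.48) and of GDF15 and DDIT3 between the C/EBPβ enh-/- libraries (2.33 and 2.27). WT library 1 held the highest value of the 4 for 26 of the 36 genes (30.2% of all genes tested), WT library 2 for 3 (30.0%), C/EBPβ enh-/- library 1 for 7 (28.8%) and C/EBPβ enh-/- library 2 for 0 (10.9%). The amino acid enzymes ASNS, PCK2, PSAT1 and PSPH and the feedback genes TRIB3 and CHAC1 stood 2.58 to 5.93 times higher in WT library 1 than in WT library 2. For these 6 genes, both C/EBPβ enh-/- values lay nearer to WT library 2. ATF3, DDIT3, PPP1R15A and STC2 were more than 2-fold higher in FPKM in library 1 of both genotypes. The plot of every gene's values shows both by role.

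**Figure D1:**
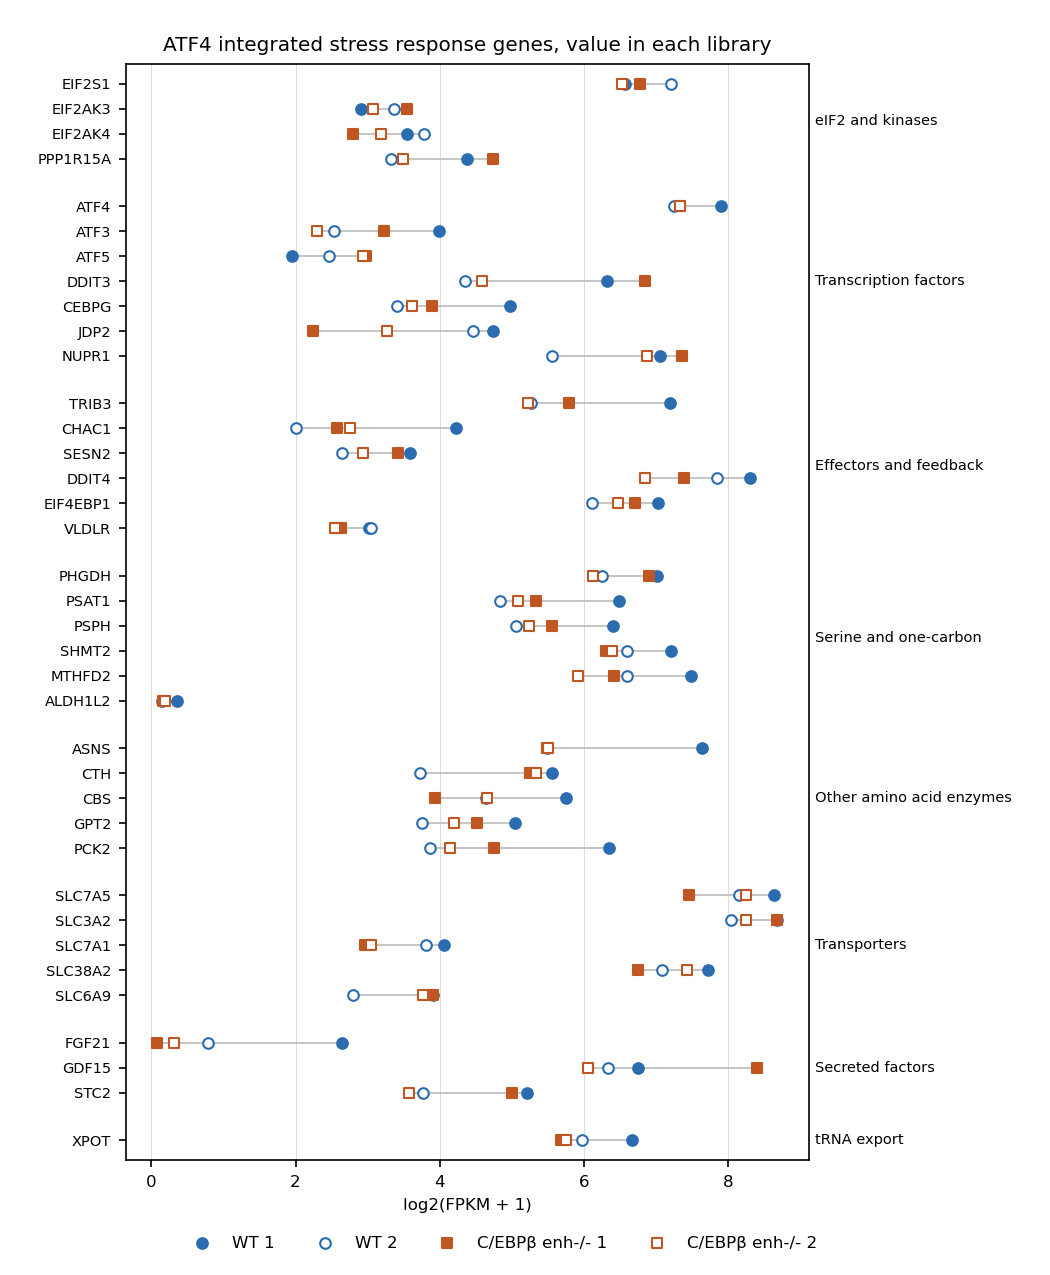
Level of each of the 37 genes, as log2(FPKM + 1), in the 4 libraries, grouped by role; circles are WT and squares C/EBPβ enh-/- cells, filled for library 1 and open for library 2. WT library 1 lies farthest to the right for 26 of 36 genes, among them ASNS, PCK2 and TRIB3, while DDIT3 and STC2 are high in library 1 of both genotypes.

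Upstream of ATF4, the genes for the sensors did not share the pattern of the targets. EIF2S1, which encodes eIF2α itself (chromosome 14), had an FPKM of 94.2 and 146 in WT libraries 1 and 2 and of 109 and 91.0 in the C/EBPβ enh-/- pair. WT library 2 was the highest and the genotypes overlapped. EIF2AK4, which encodes the amino acid sensor GCN2, had 10.6 and 12.7 in WT libraries and 5.91 and 8.06 in C/EBPβ enh-/- libraries. C/EBPβ enh-/- cells did not overlap with WT cells, with means of 6.98 ± 1.52 (SD, n = 2) and 11.7 ± 1.51 (SD, n = 2). EIF2AK3, which encodes PERK, stayed between 6.52 and 10.6 in all 4 libraries, with the genotypes overlapping.

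PPP1R15A encodes GADD34, the phosphatase subunit that removes the phosphate from eIF2α and so ends the response. Its FPKM was 19.8 in WT library 1 and 9.07 in WT library 2, and 25.5 in C/EBPβ enh-/- library 1 and 10.2 in C/EBPβ enh-/- library 2. Library 1 was 2.19 times library 2 in WT cells and 2.49 times library 2 in C/EBPβ enh-/- cells, so that the libraries were split by number and not by genotype.

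Among the transcription factors, ATF4 (chromosome 22, 39915700 to 39918688, plus strand) had an FPKM of 238 and 152 in WT libraries 1 and 2 and of 159 and 160 in C/EBPβ enh-/- libraries. WT cells averaged 195 ± 61.4 (SD, n = 2) and C/EBPβ enh-/- cells 160 ± 0.688 (SD, n = 2). WT library 1 stood 1.57 times above WT library 2, and the other 3 libraries were nearly equal. ATF4 is controlled mainly at translation, which RNA levels do not measure.

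CEBPG encodes C/EBPγ, a partner of ATF4, and had 30.4 and 9.65 in WT libraries and 13.8 and 11.2 in C/EBPβ enh-/- libraries. WT library 1 was 3.15 times WT library 2 and stood above the other 3 libraries. NUPR1, a small stress-responsive chromatin protein, was also lowest in WT library 2, with 131 and 45.9 in WT and 163 and 116 in C/EBPβ enh-/- libraries. The genotypes overlapped for both genes.

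DDIT3 (chromosome 12, 57910371 to 57915520, minus strand) encodes CHOP, which promotes cell death under prolonged stress. Its FPKM was 78.7 in WT library 1 and 19.3 in WT library 2, and 115 in C/EBPβ enh-/- library 1 and 22.9 in C/EBPβ enh-/- library 2. Library 1 was 4.07 times library 2 in WT and 4.99 times in C/EBPβ enh-/- cells. The genotypes overlapped, and the spread within each was larger than the log2 difference of their means, 0.38. ATF3, a repressor of the same family, ran from 14.9 to 4.77 in WT and from 8.36 to 3.92 in C/EBPβ enh-/- libraries, with library 1 the higher in both.

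JDP2 and ATF5 were the transcription factor genes whose genotypes did not overlap. JDP2, which encodes a bZIP repressor that dimerizes with Jun and ATF proteins (chromosome 14, 75894419 to 75940814, plus strand), had 25.7 and 21.0 in WT and 3.73 and 8.62 in C/EBPβ enh-/- libraries. The C/EBPβ enh-/- mean of 6.17 ± 3.46 (SD, n = 2) was 0.264 times the WT mean of 23.4 ± 3.35 (SD, n = 2). On the log2(FPKM + 1) scale, used for every difference here, JDP2 had the largest genotype difference of the 36 genes, −1.85, and it was −1.71 without WT library 1. ATF5, which encodes an activator induced by the same translational switch as ATF4, had 2.86 and 4.5 in WT and 6.86 and 6.69 in C/EBPβ enh-/- libraries. No other gene of the 36 was higher in both C/EBPβ enh-/- libraries than in both WT libraries.

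The effectors and feedback genes carried some of the widest gaps between the WT libraries. TRIB3, a pseudokinase that ATF4 and CHOP induce and that damps them (chromosome 20), had an FPKM of 145 and 37.6 in WT and of 54.5 and 36.4 in C/EBPβ enh-/- libraries. CHAC1, a glutathione-degrading enzyme, had 17.7 and 3.01 in WT and 4.95 and 5.77 in C/EBPβ enh-/- libraries. WT library 1 was thus 3.85 times WT library 2 for TRIB3 and 5.86 times for CHAC1, and it was above both C/EBPβ enh-/- values. The log2 difference between genotypes was −0.72 for TRIB3 and −0.45 for CHAC1, and without WT library 1 it was 0.24 and 0.66, so the direction turned.

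DDIT4 behaved differently. It encodes REDD1, an inhibitor of mTORC1 (chromosome 10, 74033678 to 74035794, plus strand), and had 314 and 229 in WT and 165 and 114 in C/EBPβ enh-/- libraries. The genotypes did not overlap, the ratio of the means was 0.514, and the log2 difference of −0.96 was −0.73 without WT library 1. SESN2 (sestrin 2, an mTORC1 inhibitor), EIF4EBP1 (4E-BP1, a repressor of cap-dependent translation) and VLDLR (a lipoprotein receptor) had log2 genotype differences of 0.06, 0.02 and −0.45. SESN2 and EIF4EBP1 were 0.95 and 0.91 higher in WT library 1 than in WT library 2 on the log2 scale, just under the difference of 1 on the log2(FPKM + 1) scale used to count genes between 2 libraries. VLDLR ranged from 7.12 to 7.26 in WT and from 4.81 to 5.18 in C/EBPβ enh-/- libraries, with no overlap.

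The enzymes of serine, glycine and one-carbon metabolism form a chain from glycolysis to mitochondrial folate. PSAT1, the transaminase of serine synthesis, had an FPKM of 88.3 and 27.5 in WT and of 39.1 and 33 in C/EBPβ enh-/- libraries. PSPH, the phosphatase that finishes serine synthesis, had 83.3 and 32.3 in WT and 45.8 and 36.8 in C/EBPβ enh-/- libraries. In both, WT library 1 was highest and WT library 2 lowest, by 3.22 and 2.58 times, with both C/EBPβ enh-/- libraries between them. PHGDH, the first enzyme of the chain, was higher in library 1 of both genotypes, at 128 and 119, than in library 2, at 75 and 68.4.

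MTHFD2, the mitochondrial folate dehydrogenase, had 178 and 95.4 in WT and 84.4 and 59.0 in C/EBPβ enh-/- libraries. The genotypes did not overlap, and the log2 difference of −0.88 was −0.43 without WT library 1. SHMT2, which splits serine to glycine in mitochondria, did not overlap either, with 147 and 95.7 in WT and 78.5 and 82.9 in C/EBPβ enh-/- libraries. ALDH1L2 was between 0.109 and 0.273 in all 4 libraries and was the 1 gene below the mean FPKM of 1. Fragments of PSPH, MTHFD2 and ATF4 can be divided with their processed pseudogenes, so their levels are uncertain to that extent.

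The other amino acid enzymes had the highest median gap between WT libraries of any role, 1.83 on the log2 scale over 5 genes. ASNS, asparagine synthetase and a standard ATF4 readout (chromosome 7, 97480989 to 97501854, minus strand), had an FPKM of 198 in WT library 1 and 43.9 in WT library 2, against 43.5 and 44.2 in C/EBPβ enh-/- libraries. PCK2, the mitochondrial enzyme that makes phosphoenolpyruvate (chromosome 14, 24563262 to 24579807, plus strand), had 80.1 and 13.5 in WT and 25.9 and 16.7 in C/EBPβ enh-/- libraries. For ASNS, 3 libraries were almost equal and WT library 1 was 4.5 times WT library 2. The WT mean of 121 ± 109 (SD, n = 2) therefore describes neither library, and the log2 genotype difference was −1.07 with all libraries, 0.00 without WT library 1 and −2.15 without WT library 2.

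CTH, which makes cysteine from cystathionine, departed from this. It had 46.1 in WT library 1 and 12.2 in WT library 2, and 37.1 and 39.3 in C/EBPβ enh-/- libraries. Here WT library 2 stood alone, below the other 3. CBS, the enzyme before CTH, had 52.9 in WT library 1 and between 14.3 and 24.1 in the other 3 libraries. GPT2, the mitochondrial alanine transaminase, was 32.0 in WT library 1, 12.5 in WT library 2 and 21.9 and 17.2 in C/EBPβ enh-/- libraries.

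The transporters showed smaller gaps between the WT libraries. SLC7A5, the LAT1 transporter of large neutral amino acids, had an FPKM of 395 and 283 in WT and of 175 and 302 in C/EBPβ enh-/- libraries, which overlapped. SLC7A1, the cationic transporter CAT1, had 15.7 and 13.1 in WT and 6.8 and 7.2 in C/EBPβ enh-/- libraries. It was the transporter with no overlap, with means of 14.4 ± 1.85 (SD, n = 2) and 7.0 ± 0.28 (SD, n = 2) and a log2 difference of −0.94, or −0.81 without WT library 1. SLC6A9, the glycine transporter GLYT1, had 14 in WT library 1, 5.98 in WT library 2 and 13.9 and 12.5 in C/EBPβ enh-/- libraries. As for CTH, WT library 2 was the low one. SLC3A2, the chain that carries LAT1 to the membrane, ranged from 262 to 410 and SLC38A2, the SNAT2 transporter, from 106 to 210, and both overlapped.

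The secreted factors differed from each other. FGF21, the fasting hormone, had an FPKM of 5.29 and 0.728 in WT and of 0.0577 and 0.236 in C/EBPβ enh-/- libraries. Only WT library 1 exceeded 1, and the means were 3.01 ± 3.22 (SD, n = 2) and 0.147 ± 0.126 (SD, n = 2). GDF15, a stress-induced cytokine, had 107 and 79.7 in WT, 337 in C/EBPβ enh-/- library 1 and 65.9 in C/EBPβ enh-/- library 2. The gap was 5.11 times within C/EBPβ enh-/- cells, and the genotypes overlapped. STC2, a secreted glycoprotein, had 36.0 and 12.6 in WT and 31.1 and 10.9 in C/EBPβ enh-/- libraries, with library 1 high in both, as for DDIT3. XPOT, the exporter of tRNA from the nucleus, had 101 and 61.6 in WT and 50.3 and 52.9 in C/EBPβ enh-/- libraries, with all C/EBPβ enh-/- values below WT.

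Counted between the 2 WT libraries, 17 of 36 genes (47.2%) were at least 1 higher on the log2 scale in WT library 1, against 1.84% of the 12491 genes tested. None was at least 1 higher in WT library 2, against 1.51% of all genes. The 17 were ASNS, ATF3, CBS, CEBPG, CHAC1, CTH, DDIT3, FGF21, GPT2, NUPR1, PCK2, PPP1R15A, PSAT1, PSPH, SLC6A9, STC2 and TRIB3. Just inside this limit were PPP1R15A (1.05) and SLC6A9 (1.1). FGF21 passed the filter on low values through WT library 1 alone, so it had to be higher there. Of any size, the value was higher in WT library 1 for 31 of 36 genes, against 48.9% of all genes. The median difference was 0.93 over the 36 genes and −0.01 over all genes. Since this gap was known when the genes were proposed, the counts describe it and test nothing, and with 1 library on each side no test of it exists. The count was 16 to 18 under other pseudocounts, filters and scalings, all chosen after seeing the data.

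By role, the median gap between WT libraries on the log2 scale was 1.46 for the 7 transcription factors, 0.93 for the 6 effectors, 0.89 for the 5 serine and one-carbon enzymes, 1.83 for the 5 other enzymes, 0.63 for the 5 transporters and 1.45 for the 3 secreted factors. It was −0.35 for the 4 genes of eIF2α and its regulators, with PPP1R15A (1.05) the 1 gene of these 4 above 0.

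Between the C/EBPβ enh-/- libraries, 4 of 36 genes were at least 1 higher in library 1 (DDIT3, GDF15, PPP1R15A and STC2; 2.83% of all genes) and 1 was at least 1 higher in library 2 (JDP2; 2.24% of all genes). Of any size, 23 of 36 were higher in library 1, against 58.9% of all genes. The median difference was 0.25, against 0.09 over all genes. DDIT3, PPP1R15A and STC2 were at least 1 higher in library 1 of both genotypes, which held for 0.232% of all genes, while ATF3 differed by 1.46 and 0.93. By contrast, the amino acid enzymes ASNS, CTH and PCK2 differed by −0.02, −0.08 and 0.61 between the C/EBPβ enh-/- libraries, against 2.15, 1.83 and 2.48 between the WT libraries. The labels give the same flow cell lane for all 4 libraries.

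**Figure D2:**
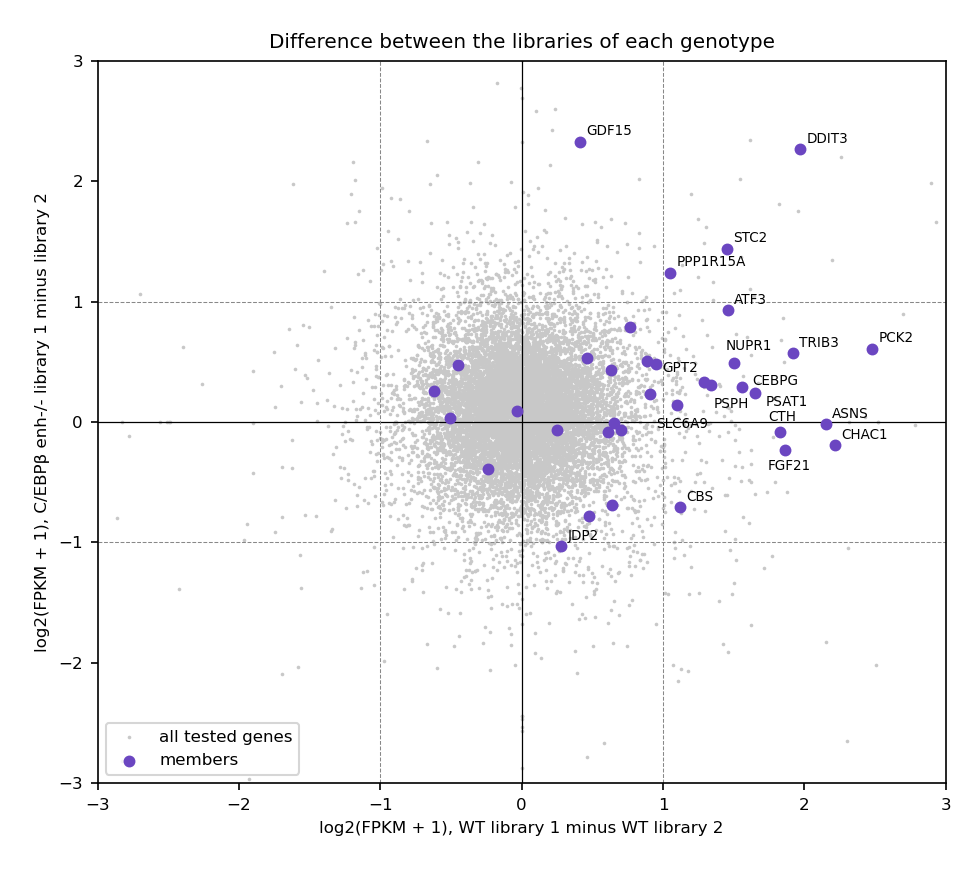
Difference on the log2(FPKM + 1) scale between library 1 and library 2, in WT cells on the horizontal axis and in C/EBPβ enh-/- cells on the vertical axis, with 1 point per gene; purple points are the 36 stress genes and grey points the 12491 genes tested, of which 59 lie outside the axes, and dashed lines mark a difference of 1. ASNS and CHAC1 lie far to the right near the horizontal axis, PCK2 lies farthest to the right of the 36 genes, DDIT3, STC2 and PPP1R15A lie in the upper right, and GDF15 lies at the top.

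Between genotypes, no member passed an adjusted p of 0.05 in limma with Benjamini-Hochberg adjustment, in either direction, while the genes called lower in C/EBPβ enh-/- cells were 1.21% of all those tested and the genes called higher 0.248%. Without adjustment, at a p of 0.05, 6 genes were lower (DDIT4, EIF2AK4, FGF21, JDP2, MTHFD2 and SLC7A1; 16.9% of all genes) and 1 was higher (ATF5; 3.86%). In 9 genes neither C/EBPβ enh-/- library reached the lower WT library, against 37.5% of all genes, and these were the same 6 with SHMT2, VLDLR and XPOT. ATF5 was the 1 gene with the opposite separation, against 15.1%. The log2 difference was below 0 in 25 of 36 genes (62.6% of all genes), with a median of −0.39 against −0.14 over all genes. FGF21 passed the filter on low values through WT library 1 alone, the library where it was high, so it had to differ. With protein-coding genes only, limma called 1 member lower, and 457 of all 10909 genes. Nothing is read from these counts, since the genes were chosen with them known.

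The WT library gap exceeded the genotype difference in 28 of 36 genes (77.8%), against 40.8% of all genes. Without WT library 1, the sign of the genotype difference changed in 14 of 36 genes (38.9%), against 12% of all genes. Then 23 genes (63.9%) lay above 0 and 13 (36.1%) below, against 37.8% and 62.1% of all genes. The median over the 36 genes was then 0.25, and it was −0.73 without WT library 2, whereas the median over all genes stayed at −0.15 and −0.14. A log2 difference of −1 or lower was found in 3 genes (8.33%) with all 4 libraries, in 1 (JDP2; 2.78%) without WT library 1 and in 14 (38.9%) without WT library 2. The shares of all genes were 6.14%, 6.51% and 7.41%. FGF21, which passed the filter on low values through WT library 1 alone, is in the counts of 3 and 14. Of the 13 genes below 0 without WT library 1, a smaller share than over all genes, the lowest were JDP2, SLC7A1, EIF2AK4 and DDIT4. They lay at −1.71, −0.81, −0.8 and −0.73, and were also below 0 with all 4 libraries.

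**Figure D3:**
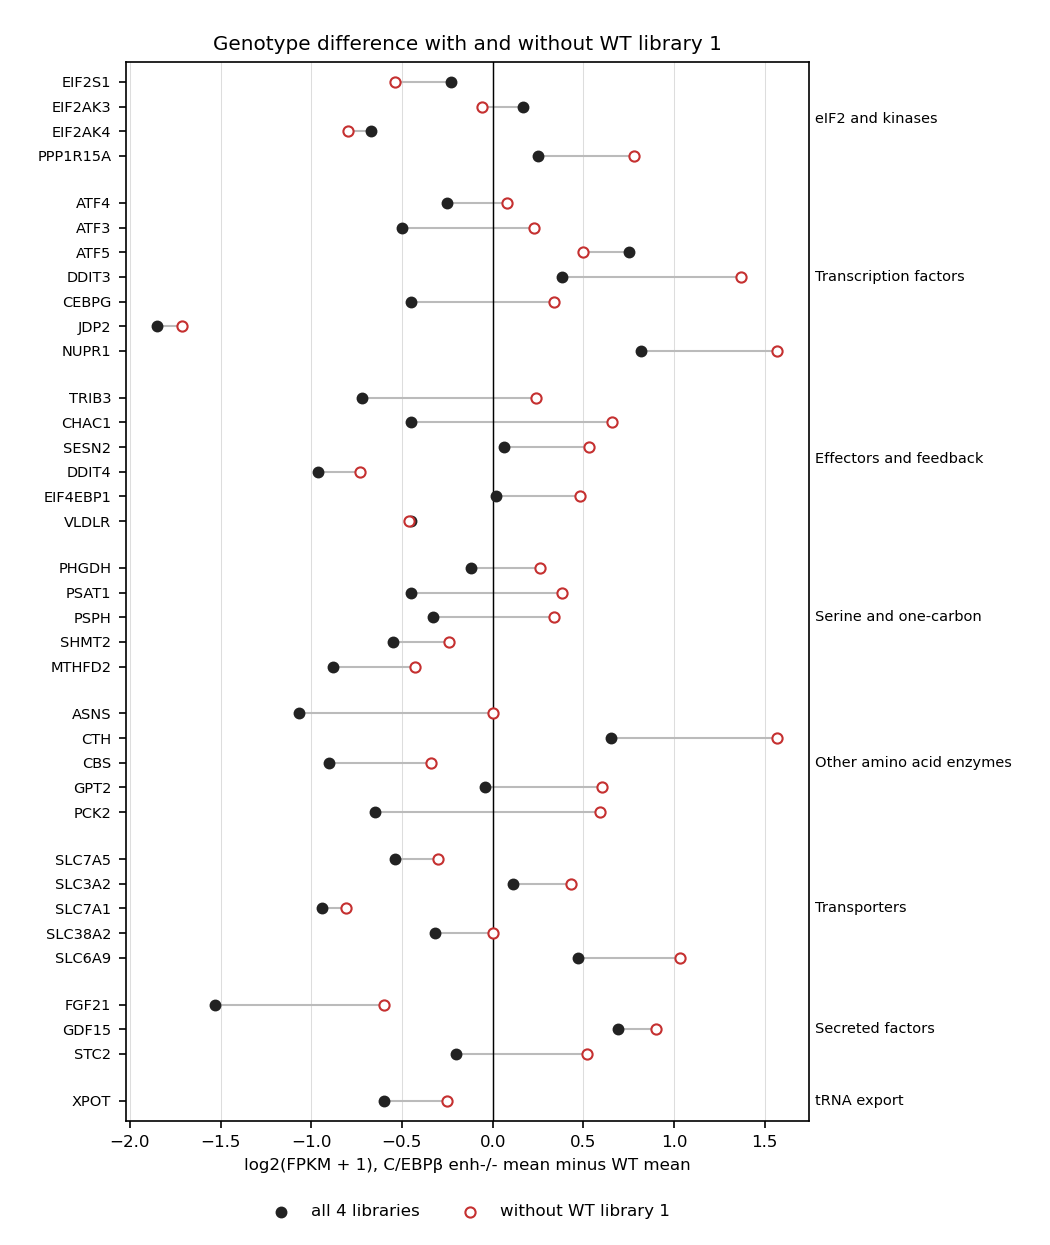
Difference of the genotype means (C/EBPβ enh-/- minus WT) on the log2(FPKM + 1) scale for the 36 genes, with all 4 libraries (black) and without WT library 1 (red, open). For ASNS, TRIB3, CHAC1, PCK2 and PSAT1 the open symbol lies at or above 0 and the black one below 0, while JDP2, DDIT4 and SLC7A1 are among the genes below 0 in both.

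The wider pathway was described with 66 other genes from lists written with earlier results of these data known, of which 65 were tested. None passed an adjusted p of 0.05 in either direction in limma, and at an unadjusted p of 0.05, 13 were lower (20.0%, against 16.9% of all genes) and none higher (against 3.86%). BCAT1, the cytosolic branched-chain transaminase, had an FPKM of 124 and 85.7 in WT and of 36.1 and 44.8 in C/EBPβ enh-/- libraries. The genotypes did not overlap, with a log2 difference of −1.34 (standard error 0.26, limma adjusted p = 0.0651). With protein-coding genes only, BCAT1 and PPP1R15B, which encodes another phosphatase subunit for eIF2α, passed the threshold, among 4 genes of these lists in all, against 457 of all 10909 genes called lower in that fit. On the other side, KLHL24 (0.81, adjusted p = 0.285), SESN1 (0.56, adjusted p = 0.457) and CCPG1, an ER-phagy receptor (0.5, adjusted p = 0.385), had the largest positive differences of the 65 genes tested. Leaving out 1 library moved these to between 0.22 and 1.4 for KLHL24, 0.08 and 1.03 for SESN1 and 0.11 and 0.88 for CCPG1.

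The aminoacyl-tRNA synthetases, which charge tRNAs and include many ATF4 targets, were mostly higher in WT library 1, for 15 of 20 genes (75%, against 48.9% of all genes). Over 20 synthetases the median gap was 0.56 on the log2 scale between WT libraries and 0.04 between C/EBPβ enh-/- libraries. The other lists lay lower between the WT libraries, with medians of 0.37 for 13 transporter and amino acid genes, 0.31 for 6 bZIP partners, 0.03 for 15 other kinase, eIF2 and eIF2B genes and −0.07 for 11 other ATF4 or CHOP targets. AARS1, the alanyl-tRNA synthetase, had an FPKM of 222 and 83.7 in WT and of 125 and 100 in C/EBPβ enh-/- libraries. GARS1, for glycine, had 136 and 54.2 in WT and 71.4 and 60.8 in C/EBPβ enh-/- libraries. WT library 1 was the highest of the 4 for both. HARS1, for histidine, ran the other way, with 20.2 and 34.4 in WT and 25.6 and 29.8 in C/EBPβ enh-/- libraries. Of the 65 genes, 7 (10.8%, against 1.84% of all genes) were at least 1 higher in WT library 1: AARS1, CARS1, GARS1, SARS1, SLC43A1, VEGFA and WARS1, 5 of them synthetases.

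Chaperones of the endoplasmic reticulum, with the degradation genes SEL1L and EDEM1 and the transcription factor XBP1, belong to the ATF6 and XBP1 arms of the unfolded protein response. They were listed after the values of the 37 genes had been seen, and are a description only. Their gap between WT libraries ran in the opposite direction. Over 15 genes the median was −0.48, and 1 of the 15, XBP1, was higher in WT library 1, against 48.9% of all genes. MANF, a secreted ER stress protein, had an FPKM of 30.2 and 95.1 in WT and of 47.4 and 52.6 in C/EBPβ enh-/- libraries. PDIA4, a disulfide isomerase, had 37.8 and 105 in WT and 46.3 and 46 in C/EBPβ enh-/- libraries. WT library 2 was the high one for both. HSPA5, which encodes the chaperone BiP, had 26.3 and 51.5 in WT, 109 in C/EBPβ enh-/- library 1 and 35.6 in C/EBPβ enh-/- library 2, so that, as for GDF15, C/EBPβ enh-/- library 1 stood apart.

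**Figure D4:**
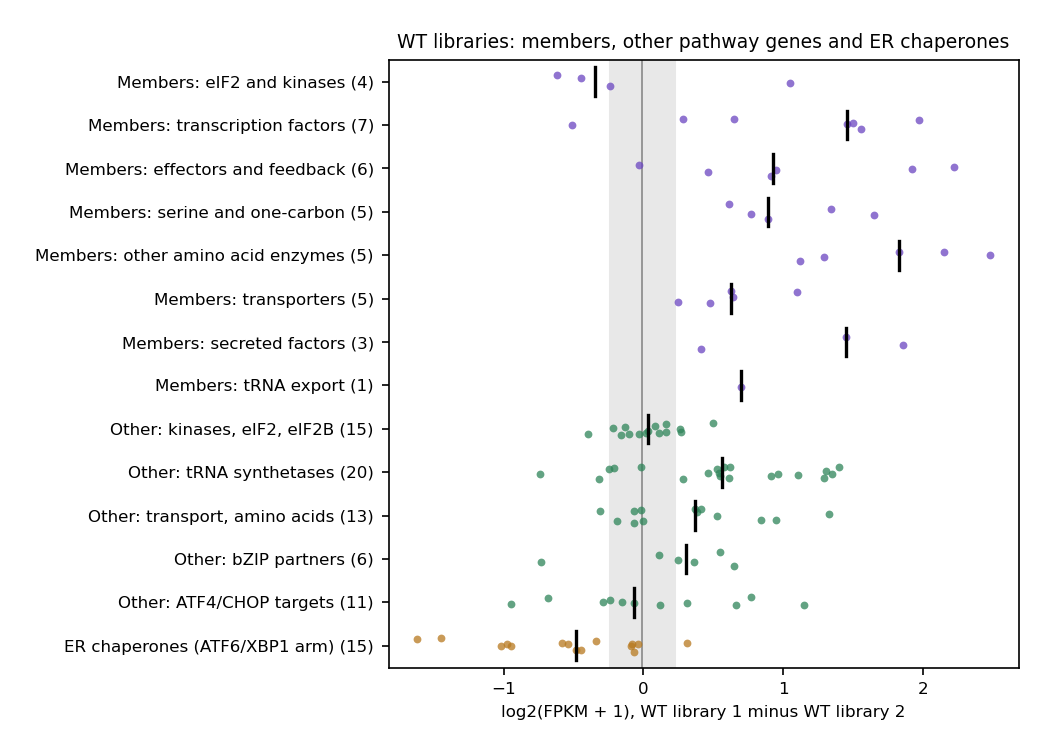
Difference between WT library 1 and WT library 2 on the log2(FPKM + 1) scale, with 1 point per gene, by role of the 36 genes (purple), of the other pathway genes (green) and for the ER chaperone list (orange); black ticks are medians, and the grey band is the interquartile range of all tested genes. The medians run from 1.83 for the other amino acid enzymes and 0.56 for the tRNA synthetases to −0.48 for the ER chaperone list.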

How the data were processed

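RNA-seq of 4 libraries labelled HepG2 was used, 2 from WT and 2 from C/EBPβ enh-/- cells by their labels. Per library, the authors deposited an FPKM for each gene. The submitters' processing notes name TopHat2 (2.0.13), Cufflinks, edgeR and hg19, without saying what each was used for. Of 57815 entries, 47 pseudoautosomal copies were left out, and 55535 genes matched a symbol. FPKM totals were between 484072.7 and 614111.2, the 5 highest genes held 18.8% to 35.1% of them, and Pearson's r of log2 values was 0.962 between WT and 0.948 between C/EBPβ enh-/- libraries. Fragment counts were not recovered, so the depth of each library, and the precision it gives, is unknown.

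Values entered as log2(FPKM + 1), and the 12491 genes that averaged an FPKM of 1 or more were compared between genotypes with limma 3.58.1 in R 4.3.3 (two-sided, Benjamini-Hochberg adjustment over all of them, threshold 0.05). P-values measure only the spread between these libraries, which may be technical, and exact permutation of 2 libraries against 2 cannot go below 0.333. On data simulated for the genotype comparison, with 200 of 12491 genes changed, the fit recovered 0% of changes of 1, 51% of 2 and 76.5% of 3 on the log2 scale. All 200 were raised. In the data, 2114 genes were lower and 482 higher at an unadjusted limma p of 0.05. The adjustment depends on how many genes change, so recovery in the data can differ from these shares. The 2 libraries of a genotype were compared with no test, by a log2 difference of 1. Tables and figures used matplotlib 3.10.9, pandas 2.3.3 and numpy 2.4.6 in Python 3.11.15.

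The 37 genes, the other lists and the rule for named genes were chosen with earlier results of these data known. All 37 genes are named, with every library's value for ATF4, DDIT3 and up to 3 genes of each role with the largest genotype or library difference, and of the other pathway genes the 3 largest differences in each direction, apart from genes that are not reported here. Further genes given by library were chosen after their values were seen. Promoters came from RefSeq and gene positions from GENCODE 44 lifted to GRCh37. Alternatives were another pseudocount, filter or scaling, protein-coding genes only, the replicate block and leaving out each library.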

Additional observations from a re-analysis of the deposited data

How the results depend on the processing

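With 2 libraries per genotype and no fragment counts, precision rests on 4 libraries. The main comparison called 151 genes lower and 31 higher over all genes, and none of the 36 stress genes or the 65 other pathway genes. With protein-coding genes only, it called 457 lower and 60 higher, among them 1 stress gene lower and 4 other pathway genes lower (BCAT1 and PPP1R15B among them). Nothing is read from the stress gene count, since the stress genes were chosen with their values known. With no filter on low values it called 0 in each direction (2657 and 1107 at an unadjusted p of 0.05). The count of lower genes was 61 after rescaling to the same total, 63 after rescaling without the 5 highest genes and 68 after centring on the median, and that of higher genes was 20 when genes had to average an FPKM of 5. The other pathway median of −0.38 was −0.19 after rescaling without the 5 highest genes and −0.2 after centring. The cause of these changes was not tested. Leaving out each library in turn, in a fit that assumes the lone library of a genotype varies like those of the other, gave 9 to 22 lower and 3 to 20 higher genes, 0 called among the stress and other pathway genes, a stress gene median of −0.73 to 0.25 and an other pathway median of −0.47 to −0.21. At an unadjusted p of 0.05, 1 stress gene was lower without WT library 1 and 16 without WT library 2, against 1178 and 1299 of all 12491 genes. Without WT library 1, the sign of the genotype difference changed in 14 of the 36 stress genes.

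The replicate numbers are shared by both genotypes, but libraries with the same number did not deviate together over all genes (correlation 0.00945, and 0.198 over the 36 stress genes), so the numbers were not taken as pairs. With a replicate block, 93 genes were called lower and 31 higher, and still no stress gene or other pathway gene was called.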
